A study of Mus musculus with 23 samples.

Results

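Retinal microglia of Spp1 knock-out (KO) mice were compared with those of mice carrying the normal Spp1 gene (WT) 4 weeks after intraocular pressure (IOP) had been raised by microbeads injected into the anterior chamber of the eye. Each group had 4 RNA-seq libraries of freshly sorted cells, 8 of the 23 libraries of the study, and the remaining libraries came from naïve retinas (8) and from retinas taken 7 days after optic nerve crush, or ONC (7). All mice of both groups carried the CX3CR1-GFP reporter, a knock-in allele (Cx3cr1tm1Litt) in which GFP takes the place of coding sequence of Cx3cr1, and cells were sorted as live GFP+ singlets. The KO animals were in addition homozygous for the germline Spp1tm1Blh allele, so that Spp1 was altered in every cell of the body and from before birth. The labels do not give the Cx3cr1-GFP copy number, the age or the sex behind any library. The methods say that tissue from more than 1 mouse was combined for each sort, so a replicate is a pool, and the p-values below measure the spread between these libraries only. A gene was described if its normalized count reached 10 in at least 3 of the 8 libraries and it was neither a crystallin gene (Cry followed by a, b or g) nor a processed pseudogene. Of 35825 genes measured, 15823 passed the count filter, 536 processed pseudogenes and 19 crystallin genes were set aside, and 15268 remained. They are referred to as the genes described.

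Microglia are the resident macrophages of the retina. In the resting state they express a set of homeostatic genes, among them the fractalkine receptor gene Cx3cr1, the purinergic receptor gene P2ry12 and the colony stimulating factor receptor gene Csf1r, and under injury they take up debris, present antigen and release chemokines, complement and lipid mediators. Spp1 encodes osteopontin, a secreted phosphoprotein that binds integrins and CD44. Loss of Cx3cr1 is itself known to alter how microglia respond to injury.

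The targeted gene was examined first. Spp1 (chr5:104435118-104441050, GRCm38) had normalized counts of 2353, 2410, 1343 and 2772 in WT replicates 1 to 4. The libraries labelled KO held 25.4, 811, 9.28 and 761. All 4 KO libraries lay below the lowest WT library, yet KO replicates 2 and 4 held far more than replicates 1 and 3. The means were 2220 ± 613 and 402 ± 444 (SD, n = 4 each), and the log2 difference was -4.23 ± 1.58 (SE). In limma across all genes the adjusted p was 0.141, so Spp1 was not called, whereas the exact two-sided permutation test gave p = 0.0286, the smallest value 4 against 4 libraries can give (0.0333 after adjustment over 7 genes). The gene-level table does not show which exons the residual reads came from. Without KO replicates 2 and 4, the KO libraries with the most Spp1, the log2 difference was called at -7.02. That it grew follows from leaving these libraries out, so it is no separate support. The setting without this pair was chosen after the data were seen.

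The libraries differed in more than Spp1. The summed normalized count of 24 homeostatic microglial genes other than Cx3cr1 was 562134, 961206, 1013044 and 631572 in the WT libraries. In the KO libraries it was 1188849, 997343, 1305563 and 982189. WT replicates 1 and 4 were thus the lowest of the 8, while WT replicate 3 lay within the KO range and WT replicate 2 just under it. The same WT libraries had the highest sums of 14 rod genes, 637232 and 699776, against 445023 and 493989 in WT replicates 2 and 3 and 257368 to 435359 in the KO libraries. They also had the highest sums of 19 lens genes, 247851 and 272102, against 57382 and 39038 in WT replicates 2 and 3. The KO libraries had lens sums of 1844 to 2376, where the naïve WT libraries had 2781 to 5242 and the naïve KO libraries 1413 to 6303. Most of the sum in the KO libraries after IOP elevation was Crybb1 (852 to 1103), Cryab (361 to 664) and Cryba4 (310 to 462). Crybb1 is also in the homeostatic list, though not in the sum above, so these low sums are not a measure of lens RNA alone. KO replicates 2 and 4 had sums of the pigment epithelium list of 10939 and 10319, where the other 6 libraries had 519.6 to 2414. Most of these 2 sums was Dct (5805 and 5512) and Pmel (2359 and 1619). Rpe65 was at 138 and 47.5 in them, against 3.55 to 71.7 in WT, and Rgr at 794 and 1030, against 80.6 to 471.5. The part these mixtures play in the genes below was not tested, and in sorted pools fewer microglia and less RNA per microglia cannot be told apart. Counts are therefore also given without WT replicates 1 and 4, and after rescaling each library to its mean log2 level of homeostatic genes (both chosen after the data were seen).

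**Figure D1:**
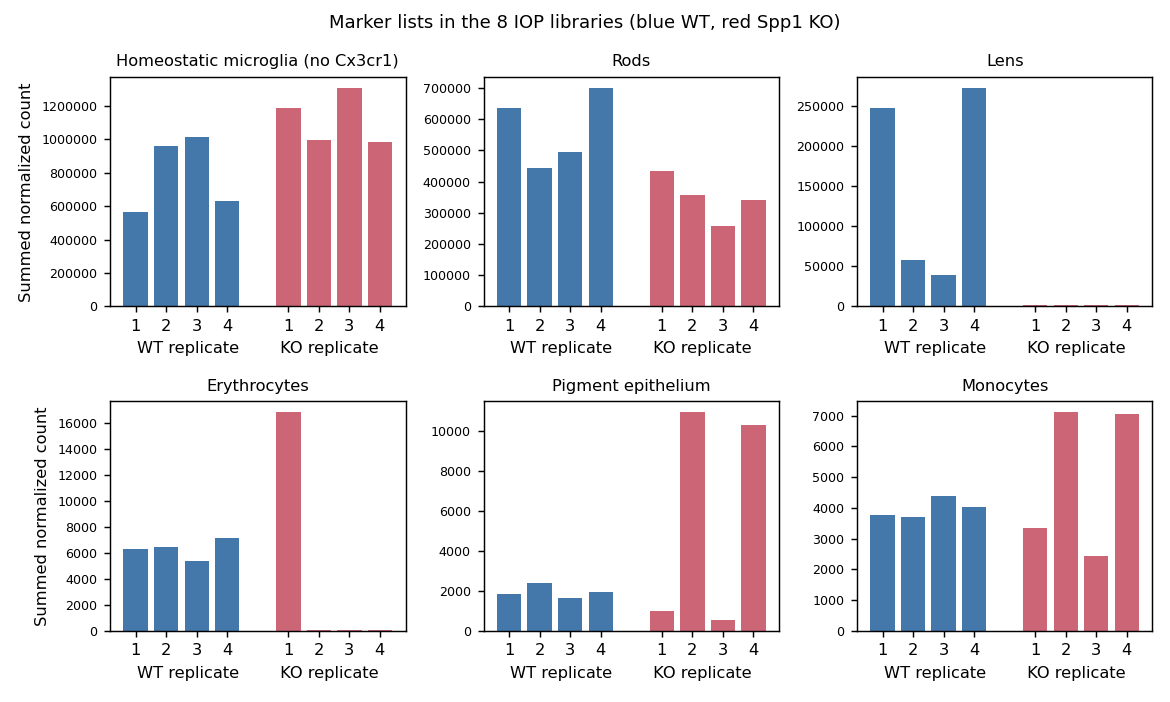
Summed normalized counts of 6 marker lists in each of the 8 libraries after IOP elevation, WT in blue and Spp1 KO in red, with replicate numbers on the x axis. WT replicates 1 and 4 are low for homeostatic microglial genes and high for rod and lens genes. KO replicates 2 and 4 have high sums of the pigment epithelium and monocyte lists. Most of their monocyte sum is Fn1 (3197 and 3424) and Ccr2 (2177 and 2145), while their Ly6c2 (31.1 and 49.5) is the lowest of the 8 libraries. The 4 lens bars of the KO libraries (1844 to 2376) are too low to be seen on this scale.

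The 18 lymphocyte and NK genes summed to 7517 to 13246 in the WT libraries and 12225 to 15882 in the KO libraries. Most of that sum was Ighm, the immunoglobulin heavy chain gene of IgM, at 6955 to 14923 in the 8 libraries, and Cd79b, of the B cell receptor, was at 152 to 682. Cd4 was at 16.3 to 471.5, whereas Cd3e, of the T cell receptor complex, was at 0 to 9.04 and the B cell gene Ms4a1 at 9.28 to 24.1. Ddx3y, a Y-linked helicase gene, was at 633 to 2274 in the WT libraries and at 0 to 3.05 in the KO libraries. The sum over 4 Y-linked genes was 1269 to 4918 against 101 to 169, so male RNA was unequal between the groups, and sex and genotype cannot be told apart here. Erythrocyte genes summed to 5375 to 7173 in WT, to 16796 in KO replicate 1 and to 24.1 to 62.6 in the other 3 KO libraries.

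At an adjusted p under 0.05 with an absolute log2 difference over 0.58, 315 of the 15268 genes described were called (2.06% of them), 71 higher (0.465%) and 244 lower (1.60%) in the KO libraries. The KO and WT values did not overlap for 296 of the 315, while over all genes described 5.54% had KO values wholly above and 7.54% wholly below those of WT. Leaving out WT replicates 1 and 4 left 18 calls, 5 higher and 13 lower, of which 17 were among the 315. All 315 genes kept their sign without those libraries, and their log2 differences had a median of 0.810 times the values with all 8. Scaling to the homeostatic genes left 4 higher and 139 lower, and moved the median over all genes tested from -0.03 to -0.51. Without KO replicates 2 and 4 there were 172 calls, and leaving out single IOP libraries gave 90 (without WT replicate 4) to 521 (without WT replicate 2). Lower calls outnumbered higher calls with all 8 libraries, without WT replicates 1 and 4 and after the scaling.

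**Figure D2:**
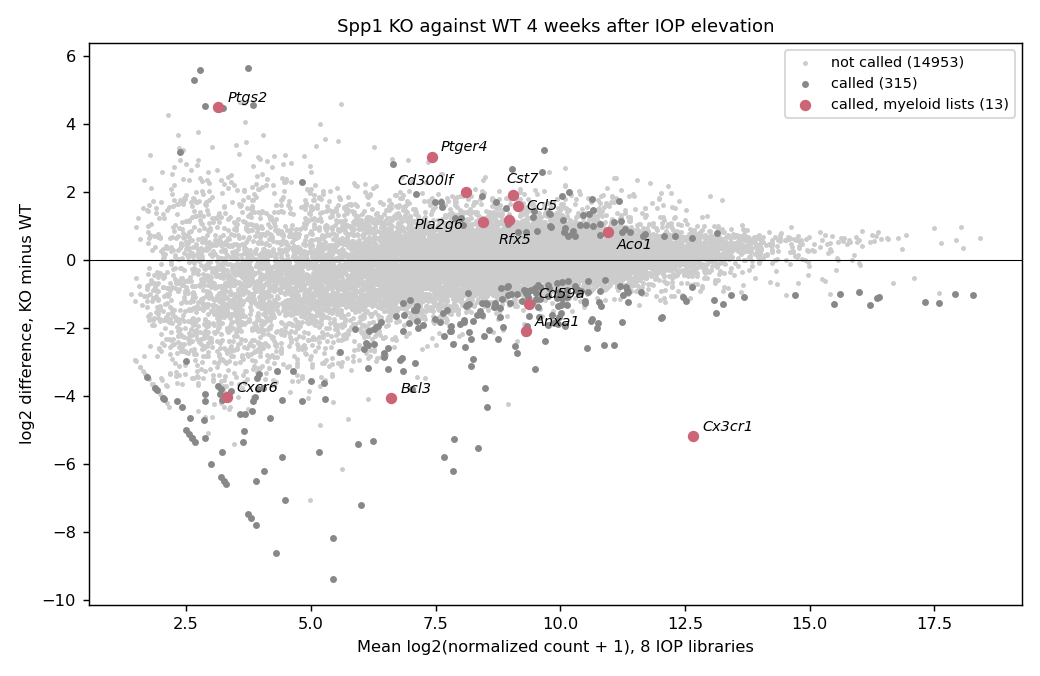
log2 difference (KO minus WT after IOP elevation) against the mean log2(normalized count + 1) of the 8 libraries for the 15268 genes described. Each point is a gene. The 13 called genes of the myeloid lists are red and named, with 8 above and 5 below 0, and Cx3cr1 stands far below genes of similar level.

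Myeloid genes were read in 21 lists holding 677 genes, of which 650 were among the genes described. Of these 8 were higher and 5 were lower in the KO libraries, 2.00% in all, which is the share over all genes described (2.06%). The median log2 difference of the 650 was 0.38, beside -0.01 for all genes described, and 497 of them lay above 0. An unadjusted p under 0.05 was reached by 24.3% of the list genes in the upward direction and 4.31% in the downward direction, beside 9.76% and 11.6% of all genes described. Without WT replicates 1 and 4 the median was 0.08 with 28 genes higher and 24 lower at that unadjusted p, beside 571 higher and 704 lower of all 15268, and scaled to homeostatic genes the median was -0.11. The medians of 20 of the 21 lists were above 0 with all libraries, 16 without WT replicates 1 and 4, and 7 after the scaling. Calls below are counted within these lists. Called genes outside them with related roles, such as Pld3, Lamtor5, Cfi and Cybrd1, are not in those counts.

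**Figure D3:**
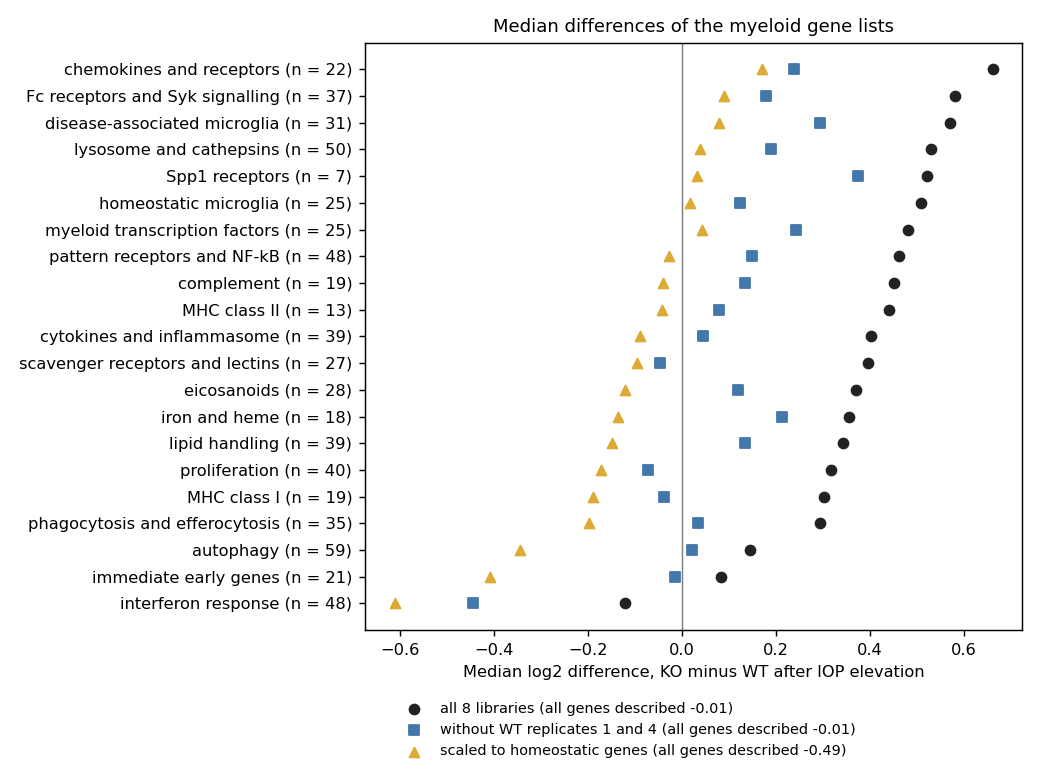
Median log2 difference (KO minus WT after IOP elevation) of each of the 21 myeloid lists, with the number of genes described in brackets, from all 8 libraries (circles), without WT replicates 1 and 4 (squares) and after scaling to homeostatic genes (triangles). All but the interferon list lie above 0 in the first, most move toward 0 in the second, and 14 lie below 0 in the third.

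The largest change of any homeostatic gene was in Cx3cr1 (chr9:119901616-120069879), the receptor through which microglia sense neuronal fractalkine and the locus that carries the GFP reporter. WT libraries had 26836, 54612, 51592 and 31626 normalized counts. The KO libraries had 1079, 1233, 1067 and 952, a tight group far below every WT library. The KO mean was 2.63% of the WT mean, with a log2 difference of -5.19 ± 0.35 and an adjusted p of 1.21e-08. It was called in all 8 fits that each left out 1 library, at -5.62 without WT replicates 1 and 4 and at -5.68 after scaling to the other homeostatic genes. In the naïve KO libraries Cx3cr1 was at 9417 to 26283 and after ONC at 12869 to 46130, above every KO library after IOP elevation. The Cx3cr1 level in a reporter mouse depends on how many copies of the knock-in it carries. The methods say that reporter mice heterozygous for GFP entered the cross with Spp1 KO mice and that the offspring were bred on, but neither they nor the labels give the copies in the animals sequenced.

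The other homeostatic genes did not follow Cx3cr1. Of 25 genes described, 0 others were called, 23 lay above 0 and the list median was 0.51 (0.12 without WT replicates 1 and 4, where 0 others reached an unadjusted p under 0.05). Csf1r, needed for microglial survival, had 143011, 278827, 267997 and 165970 counts in WT and 331237, 277358, 364169 and 271471 in KO. The values of KO replicates 2 and 4 lay beside those of WT replicates 2 and 3, and the log2 difference was 0.59 with an adjusted p of 0.325. Selplg, the ligand of P-selectin, differed by 0.51 (adjusted p 0.343). Itgam (CD11b, an adhesion and complement receptor) had the lowest p after Cx3cr1, with a log2 difference of 0.97 and an adjusted p of 0.126.

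Transcription factors and upstream receptors that set myeloid identity had 0 calls among 25 genes and a median of 0.48. The TGF-beta receptor genes Tgfbr1 and Tgfbr2 and the factor gene Mef2c, those with the highest counts, had log2 differences of 0.26, 0.83 and 0.36 (adjusted p 0.689, 0.194 and 0.392). Runx1, a factor of myeloid development, differed by 1.54 (adjusted p 0.0713), and Tfec, a relative of the lysosomal factor TFEB at low counts, by 3.12 (0.101).

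Disease-associated microglia are a state with raised phagocytic, lipid and lysosomal genes, first described in the brain, where Spp1 is among its genes. Of 31 listed genes 1 was called. Cst7 (chr2:150570415-150578944) encodes cystatin F, an inhibitor of lysosomal cathepsins and an early marker of that state. Its WT values were 171, 405, 432 and 191. Its KO values were 766, 1124, 1211 and 1072, all above the highest WT library. The mean was 3.48-fold higher, 1043 ± 194 against 300 ± 138, with a log2 difference of 1.90 ± 0.27 and an adjusted p of 0.00046. Cst7 was called in all 8 fits without 1 library, without WT replicates 1 and 4 (1.30, adjusted p 0.0415) and after scaling to homeostatic genes (1.41, adjusted p 0.00897), and it was the 1 myeloid-list gene called higher under both of these. The level remained far under that of ONC, where WT libraries had 5573 to 5794 and KO libraries 6201 to 9267.

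The rest of that list gave no call, with a median of 0.57, and 0.29 without WT replicates 1 and 4. Apoe, a lipid carrier, had 140262, 400430, 221520 and 108996 counts in WT and 309561, 442553, 316187 and 439334 in KO. The groups overlapped, and the log2 difference was 0.95 ± 0.45 with an adjusted p of 0.232. Lpl (lipoprotein lipase) differed by 0.70 (adjusted p 0.0801), and the lysosomal proteases Ctsb and Ctsd each by 0.64 (0.157 and 0.277).

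The eicosanoid list gave 3 calls among 28 genes, all higher, where the share called over all genes described in that direction was 0.465%. The phospholipase A2 genes Pla2g2d, Pla2g2f and Pla2g3 were also called but are not in that list. Of these, Pla2g2f was called in all 8 fits without 1 library. The directions of these genes are not given here, so the count holds for the list and not for the whole pathway. Phospholipases release arachidonic acid from membranes, cyclooxygenases convert it to prostaglandin precursors, and prostaglandin receptors on the same or other cells read the product. Ptgs2 (chr1:150100031-150108227), the inducible cyclooxygenase, had 5.50, 0, 0 and 0.886 counts in WT. The KO libraries had 33.6, 54.2, 65.0 and 23.2, without overlap but at low counts throughout, since 3 reads corresponded to 2.66 to 3.28 normalized counts. The log2 difference was 4.48 ± 1.10 (adjusted p 0.0347), and the call was lost in 7 of the 8 fits without 1 library.

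Ptger4, the EP4 receptor for prostaglandin E2, had 152, 170, 24.5 and 18.6 counts in WT and 246, 500, 707 and 670 in KO. Here WT replicates 3 and 4 were low and replicates 1 and 2 higher, a split unlike that of the marker sums, and every KO library was above every WT library. The log2 difference was 3.03 ± 0.68 (adjusted p 0.0214). Pla2g6, a calcium-independent phospholipase A2, had 258, 132, 310 and 301 counts in WT and 465, 650, 523 and 440 in KO. The groups did not overlap, and the log2 difference was 1.11 ± 0.25 (adjusted p 0.0233). Without WT replicates 1 and 4 the differences of Ptgs2, Ptger4 and Pla2g6 were 5.39, 2.90 and 1.34, of the same size as before, with adjusted p values of 0.167, 0.199 and 0.132, and after the homeostatic scaling they were 4.00, 2.55 and 0.62 with 0 of the 3 called. The constitutive cyclooxygenase gene Ptgs1 differed by 0.54 (adjusted p 0.339). The prostaglandin-degrading Hpgd differed by 0.05 (0.936) and the lysosomal phospholipase Pla2g15 by 0.40 (0.426), both with overlapping groups.

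The 250 bases upstream of the RefSeq transcription start of 4 called myeloid genes, Cst7, Ptgs2, Ptger4 and Cd300lf, are shown because these genes carried the higher calls with the largest log2 differences in the lists (GRCm38.p6, gene strand, ending at the base before the start). Capitals mark matches on either strand to the letters GGAAGT (ETS core, to which PU.1 belongs), TTGCNNAA (C/EBP), the kappaB motif, TGACGTCA (cAMP response element), TGANTCA (AP-1) and TATAAA, where overlapping matches would merge into 1 run.
Cst7, chr2:150570165-150570414, plus strand: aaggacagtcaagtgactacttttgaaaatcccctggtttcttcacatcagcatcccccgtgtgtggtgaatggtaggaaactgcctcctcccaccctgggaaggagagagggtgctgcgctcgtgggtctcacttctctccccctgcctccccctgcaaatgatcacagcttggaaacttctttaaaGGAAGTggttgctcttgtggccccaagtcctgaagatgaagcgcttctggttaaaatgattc
Ptgs2, chr1:150099781-150100030, plus strand: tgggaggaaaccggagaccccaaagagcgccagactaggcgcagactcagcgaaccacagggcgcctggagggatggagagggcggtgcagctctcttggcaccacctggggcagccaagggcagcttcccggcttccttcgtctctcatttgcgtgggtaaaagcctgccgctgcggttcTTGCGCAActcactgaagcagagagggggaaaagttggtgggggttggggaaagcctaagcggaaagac
Ptger4, chr15:5244188-5244437, minus strand: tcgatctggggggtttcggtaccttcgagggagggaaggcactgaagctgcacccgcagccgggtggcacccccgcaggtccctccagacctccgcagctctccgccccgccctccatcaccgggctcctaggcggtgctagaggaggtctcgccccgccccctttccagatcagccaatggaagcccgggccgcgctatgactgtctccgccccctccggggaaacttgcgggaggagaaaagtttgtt
Cd300lf, chr11:115133993-115134242, minus strand: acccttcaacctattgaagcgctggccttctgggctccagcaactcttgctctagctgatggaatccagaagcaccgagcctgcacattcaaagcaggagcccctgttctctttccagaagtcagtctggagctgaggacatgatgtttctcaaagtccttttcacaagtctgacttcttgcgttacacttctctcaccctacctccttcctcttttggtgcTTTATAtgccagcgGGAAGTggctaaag
The ETS core was found in the windows of Cst7 and Cd300lf and in 19.7% of all 32841 windows of the same length. A C/EBP match, palindromic and so on both strands, stood in the Ptgs2 window (9.57% of all windows), and the Cd300lf window also held TATAAA on the opposite strand (12.4%). The kappaB, cAMP response element and AP-1 letters, present in 1.41%, 1.55% and 6.75% of all windows, were found in none of the 4. G and C made up 61.6% and 66.8% of the Ptgs2 and Ptger4 windows and 51.6% and 50% of those of Cst7 and Cd300lf, beside a median of 52.4%.

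Chemokines and their receptors gave 2 calls in opposite directions among 22 genes, and their list median of 0.66 was the highest of the 21. Ccl5 (RANTES), which attracts T cells and monocytes, had 249.2, 712, 286 and 226 counts in WT and 789, 1059, 1239 and 888 in KO. WT replicate 2 stood close to the lowest KO library, and the others were well below it. The mean was 2.70-fold higher (994 ± 198 against 368 ± 230), with a log2 difference of 1.58 ± 0.37 and an adjusted p of 0.0285, and the call was lost in 6 of the 8 fits without 1 library. Cxcr6, the receptor of CXCL16, had 82.4, 83.2, 23.6 and 15.1 counts in WT and 2.04, 3.01, 2.06 and 0 in KO. It was at or under the level of 3 reads in every KO library, and the log2 difference of -4.05 ± 0.70 (adjusted p 0.00328) was called in all 8 fits without 1 library and without WT replicates 1 and 4 (-4.20, adjusted p 0.0447). Its ligand Cxcl16, at 2410 to 5868 in WT and 5189 to 6147 in KO, differed by 0.59 (adjusted p 0.261). Ccl12 and Ccl6, chemokines for monocytes, differed by 0.66 and 0.32 (0.397 and 0.653).

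Cytokines, their receptors and the inflammasome had 0 calls among 39 genes. Il1rn, the interleukin-1 receptor antagonist, came nearest with 47.6, 64.6, 88.6 and 31.0 counts in WT and 190, 288, 156 and 101 in KO. The groups were separate, and the log2 difference was 1.65 with an adjusted p of 0.0526. Csf2ra, a subunit of the GM-CSF receptor, differed by 1.61 (0.0921). The receptor genes with the highest counts, Csf3r, Ifngr1 and Tnfrsf1b, differed by 0.72, 0.29 and 0.40 (0.132, 0.506 and 0.426).

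Fc receptors and Syk signalling, the path from immune complexes and TREM2 to phagocytosis, had 0 calls among 37 genes, of which 35 lay above 0 (median 0.58, and 0.18 without WT replicates 1 and 4). Syk, the kinase at the centre of that path, had 993, 1961, 968 and 798 counts in WT and 1887, 2785, 2635 and 2421 in KO. WT replicate 2 reached above the lowest KO library, and the log2 difference of 1.12 ± 0.30 had an adjusted p of 0.0504 and an exact permutation p of 0.0571. Rac2, a small GTPase of phagocytes, had KO values of 7026 to 8527 above WT values of 2733 to 5131, with a log2 difference of 1.02 (adjusted p 0.0717). Lcp1, Fcgr3 and Fcer1g, an actin bundler and a pair of Fc receptor chains, differed by 0.67, 0.67 and 0.57 (0.181, 0.192 and 0.328).

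Pattern receptors and the NF-kB path gave 1 call among 48 genes. Bcl3, a nuclear IkB protein that acts with p50 and p52, had 599, 216, 259 and 771 counts in WT and 22.4, 6.03, 46.4 and 41.4 in KO. The log2 difference was -4.07 ± 0.95 (adjusted p 0.0257). Its WT values were highest in replicates 1 and 4, the libraries with the highest lens and rod sums, and without them the difference was -3.31 with an adjusted p of 0.471. Relb, the NF-kB subunit of the non-canonical path, had 229, 393, 133 and 69.1 counts in WT and 434, 491, 1086 and 1018 in KO. All KO libraries were above all WT libraries, the exact permutation p was 0.0286, and the log2 difference of 2.03 ± 0.55 had an adjusted p of 0.0564 across all genes. Cd14, Ly86 and Tmem173 (STING), those with the highest counts, differed by 0.63, 0.63 and 0.49 (0.24, 0.248 and 0.343).

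Antigen presentation by MHC class II gave 1 call among 13 genes. Rfx5, a subunit of the factor that binds class II promoters, had 342, 371, 601 and 165 counts in WT and 879, 638, 570 and 994 in KO. KO replicate 3 was below WT replicate 3, so the groups overlapped, and the log2 difference of 1.16 ± 0.31 was called at an adjusted p of 0.0498 and lost in 7 of the 8 fits without 1 library. H2-Oa, which tunes peptide loading, was separate between the groups (251 to 607 against 667 to 1180) with a log2 difference of 1.07 and an adjusted p of 0.0507. The class II genes proper did not differ in one direction: Cd74, the invariant chain gene, had 34226, 116473, 82608 and 34953 counts in WT and 61029, 77246, 44116 and 79378 in KO. WT replicates 2 and 3 were above, and WT replicates 1 and 4 below, every KO library. H2-Ab1 and H2-Aa followed the same order, and the 3 log2 differences were 0.13, -0.01 and 0.01 (adjusted p 0.915, 0.997 and 0.998). MHC class I had 0 calls among 19 genes, with log2 differences of 0.54, 0.46 and 0.58 for the heavy chain gene H2-D1, the light chain gene B2m and the loading factor gene Pdia3 (0.258, 0.404 and 0.213).

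Interferon-response genes were the 1 myeloid list with a median below 0 in the fit with all 8 libraries (-0.12). Of its 48 genes 0 were called and 30 lay below 0, and at an unadjusted p under 0.05 5 were lower and 0 higher. Iigp1, an interferon-induced GTPase, differed by -1.41 (adjusted p 0.0965), Ifitm3 by -0.34 (0.534) and Slfn2 by 0.61 (0.312). Without WT replicates 1 and 4 this list moved away from 0 rather than toward it. The median was -0.44, 2 of the 48 genes lay above 0 and 13 were lower at an unadjusted p under 0.05, beside a median of -0.01, 7406 of 15268 above 0 and 704 lower at that p over all genes described. The scaling to homeostatic genes gave -0.61 beside -0.49.

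Complement gave 1 call among 19 genes. Cd59a, which blocks the membrane attack complex on the cell that bears it, had 1228, 574, 999 and 1665 counts in WT and 465, 542, 408 and 311 in KO. WT replicate 2 was close to the highest KO library, and the log2 difference was -1.30 ± 0.32 (adjusted p 0.0344, and 0.558 without WT replicates 1 and 4). The C1q chains, which start the classical path and tag synapses and debris, stood higher in every KO library than in every WT library. C1qc ran from 47353 to 87307 in WT and from 103571 to 128069 in KO, C1qb from 74063 to 124940 and from 157217 to 168354, and the log2 differences of C1qa, C1qb and C1qc were 0.69, 0.74 and 0.82. Their adjusted p values were 0.196, 0.155 and 0.137, and the differences were 0.30, 0.42 and 0.44 without WT replicates 1 and 4.

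Phagocytosis and efferocytosis gave 2 calls among 35 genes. Cd300lf, an inhibitory receptor for phosphatidylserine and ceramide, had 166, 158, 202 and 66.5 counts in WT and 295, 839, 675 and 539 in KO. The groups did not overlap, the mean was 3.97-fold higher and the log2 difference was 1.99 ± 0.40 (adjusted p 0.00938), called in 7 of the 8 fits without 1 library. Anxa1, a phospholipid-binding protein that limits inflammation, had 2657, 931, 523 and 2265 counts in WT and 562, 225, 259 and 264 in KO. KO replicate 1 was above WT replicate 3, the WT values were highest in replicates 1 and 4, and the log2 difference of -2.10 ± 0.50 (adjusted p 0.0302) was -1.19 without those libraries (0.574). The receptor genes Sirpa, Axl and Stab1 differed by 0.73, 0.73 and 0.39 (0.146, 0.206 and 0.545).

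Scavenger receptors and lectins had 0 calls among 27 genes. Lgals9, Scarb2 and Mrc1 differed by 0.65, 0.31 and 0.40 (adjusted p 0.247, 0.488 and 0.677), Siglecf by 0.93 (0.132), and Cd209f was at 0 in the 4 KO libraries and at 0 to 16.8 in WT.

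The lists of the degradative compartment gave 0 calls: 50 lysosomal and cathepsin genes had a median of 0.53 with 47 above 0, and 59 autophagy genes had a median of 0.15 with 41 above 0. Ctss (cathepsin S, the protease that trims the invariant chain) had 101062, 181052, 163238 and 107601 counts in WT and 258615, 251275, 268476 and 245961 in KO. The KO libraries were all higher and close to each other, with a log2 difference of 0.93 (adjusted p 0.114). Psap and Laptm5 differed by 0.72 and 0.61 (0.149 and 0.299), and Ctse and Ctsf had the lowest p values, with differences of 1.60 and 0.49 (0.0729 and 0.0746). Of the autophagy genes, Becn1, which starts the autophagosome, differed by 0.55 (0.0883) and Ubqln2, a shuttle factor for ubiquitinated proteins, by -1.64 (0.0551). The autophagy genes Sqstm1 (p62), Rab7 and Map1lc3b (LC3B) differed by 0.33, 0.35 and 0.10 (0.196, 0.313 and 0.751). Without WT replicates 1 and 4 the medians were 0.19 for the lysosome and 0.02 for autophagy, again with 0 calls.

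Lipid handling had 0 calls among 39 genes. Fasn (fatty acid synthase) differed by 0.59 (adjusted p 0.0729), Dgat2, which makes triglycerides, by 1.26 (0.0889), Acly by 0.58 (0.108), Lrpap1 by 0.42 (0.0979) and Scd2 by 0.18 (0.509). Iron and heme gave 1 call among 18. Aco1, the iron-sensing aconitase IRP1, had 1255, 1730, 1658 and 1390 counts in WT and 3098, 2531, 2546 and 2333 in KO. The groups did not overlap, and the log2 difference was 0.80 ± 0.18 (adjusted p 0.0193), but 0.31 after the homeostatic scaling (0.43). The ferritin genes Fth1 and Ftl1 and the transferrin gene Trf differed by 0.61, 0.54 and 0.57 (0.212, 0.247 and 0.195).

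Immediate early genes had 0 calls among 21, with a median of 0.08. Nr4a2 (Nurr1) had 206.7, 194, 224 and 210 counts in KO against 89.8, 92.0, 49.98 and 48.7 in WT, separate groups with a log2 difference of 1.62 and an adjusted p of 0.054, while Atf3, a stress-induced factor, differed by -0.88 (0.0556). Junb, Btg2 and Klf6 differed by 0.08, -0.17 and 0.34 (0.858, 0.468 and 0.425). Proliferation had 0 calls among 40. Bub1b, of the spindle checkpoint, differed by -0.99 (0.0634), Cdc20 by 1.31 (0.145), Stmn1 by 0.56 (0.152), Mcm3 by 0.61 (0.249) and Rrm1 by 0.14 (0.687). The integrins and other receptors of osteopontin had 0 calls among 7. Itgb1, the common beta chain, had 4373, 5938, 1859 and 1383 counts in WT and 6066, 7536, 9859 and 10548 in KO. WT replicate 2 was just below the lowest KO library, and the log2 difference was 1.54 (0.0877). Itga5 and Itga4 differed by 0.52 and -0.44 (0.203 and 0.388).

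**Figure D4:**
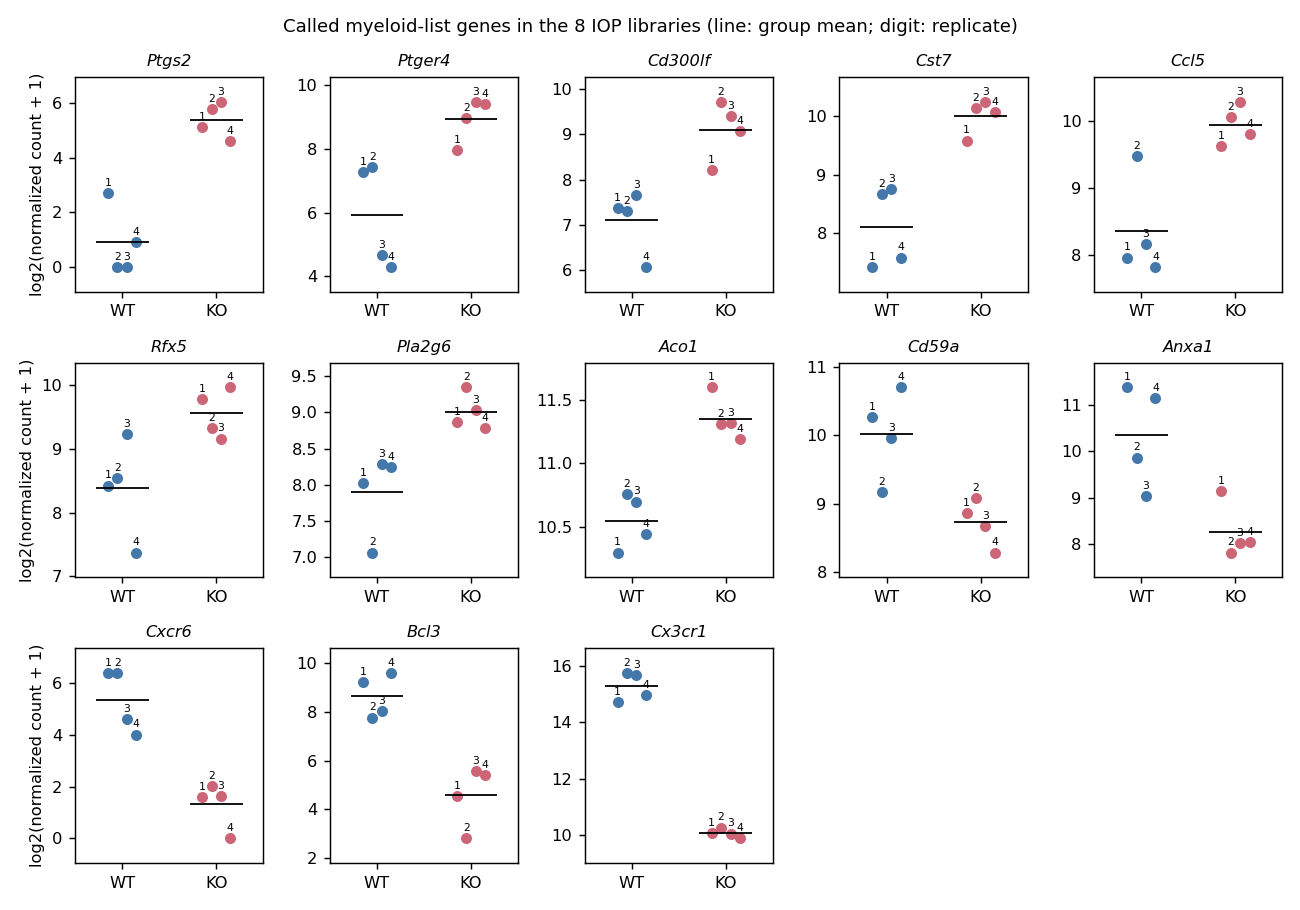
Each of the 13 called myeloid-list genes in the 8 libraries after IOP elevation, as log2(normalized count + 1), WT in blue and KO in red, with a line at the group mean and the replicate number beside each point. The groups are separate in 11 genes and overlap in Anxa1 and Rfx5.

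Outside the lists, several further receptors and signalling genes of myeloid and lymphoid cells were among the calls. They were picked after their values were seen. Lag3, an inhibitory receptor that microglia also express, had 467, 542, 502 and 333 counts in WT and 776, 1131, 1380 and 1178 in KO. The groups were separate, and the log2 difference was 1.27 ± 0.27 (adjusted p 0.015). Ubash3b (Sts-1), a phosphatase that restrains Syk-family signals, rose by 1.74 (0.0177), Jak3, a kinase of common gamma chain receptors, by 1.11 (0.0294), and Gpr35, a receptor of lipid and tryptophan metabolites, by 1.35 (0.0377). Pilra, an inhibitory receptor of myeloid cells, had 700, 1013, 1594 and 774 counts in WT and 2345, 2922, 2577 and 2965 in KO. Its log2 difference of 1.48 (0.0395) was among the 4 higher calls that the homeostatic scaling left (0.98, adjusted p 0.0244). Cd244a and its adaptor partner Sh2d1b1 (EAT-2), of the SLAM family, rose by 1.87 and 1.22 (0.0452 and 0.0492). Without WT replicates 1 and 4 the 7 genes had log2 differences between 0.78 (Jak3) and 1.44 (Ubash3b), with 0 of them called. The Syk list itself had 0 calls.

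The 10 largest rises among called protein-coding genes with separate groups differed widely in level. Gm21985, Slc2a4, Oxtr, Uts2r, Ptgs2, Inmt, Mfsd4b3, Cbln2, Pdzk1ip1 and Ptger4 made up this set, of which Ptgs2 and Ptger4 are in the myeloid lists. Oxtr, the oxytocin receptor, was at 0 in all 4 WT libraries and at 21.4, 24.1, 84.5 and 48.5 in KO, at least 15.5-fold higher when 3 reads a library are taken as the limit of a 0. Slc2a4, the insulin-regulated glucose transporter GLUT4, was likewise at 0 in WT and at 59.0, 85.4, 16.5 and 54.5 in KO, at least 18.7-fold higher. Cbln2, a synapse organizer made by neurons, had 835, 153, 131 and 300 counts in WT and 1807, 2241, 2456 and 3944 in KO. Tbx3, a T-box factor of developing and adult retina and not among these 10, had 255, 227, 328 and 95.7 in WT and 1712, 1233, 1130 and 1314 in KO. Its log2 difference of 2.68 (adjusted p 0.0057) was called in all 8 fits without 1 library. Called rises remained for 4 genes without WT replicates 1 and 4, Cst7, Cul7, St6gal2 and Tmem44, the last 3 named after their values were seen.

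The 10 largest falls were Ddx3y, Grifin, Aldh3a1, Gja3, Lgsn, Edn2, Bfsp1, Lad1, Wnt7b and Lctl. Grifin, Gja3, Lgsn and Bfsp1 encode a lens galectin-related protein, a lens connexin, lengsin and a lens filament protein, and Aldh3a1 is a corneal crystallin-like enzyme. Grifin had 892, 208, 126 and 986 counts in WT and 0 in all KO libraries, at least 181.5-fold lower. Gja3 and Lgsn were also at 0 in KO, at least 79.4-fold and 82.4-fold lower. In each of these the highest WT values were those of replicates 1 and 4, as in the lens sum, and of the 19 lens genes 5 were at 0 in all KO libraries. Edn2, a peptide that stressed photoreceptors release, had 569, 115, 140 and 495 counts in WT and 13.2, 0, 0 and 0 in KO.

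A wider group of lower genes had the same order of WT libraries. Lcn2 and Timp1, acute-phase genes of reactive glia, had 3067, 787, 504 and 3565 and 565, 103, 118 and 606 counts in WT, and at most 274 and 32.1 in KO. Their log2 differences were -5.26 and -5.65 (adjusted p 0.0304 and 0.0215). Vim (vimentin) and Crym, of the Müller glia list, had WT values of 1656 to 5417 and 1757 to 7222 and KO values of 625 to 1087 and 522 to 799. S100a6 fell from 2632, 638, 628 and 2942 to 83.5, 130, 61.9 and 133. Without WT replicates 1 and 4 Crym and S100a6 were still called at -1.67 and -2.69, and Vim, Lcn2 and Timp1 were not (-1.16, -4.06 and -4.45).

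Of 13 protein genes encoded by mitochondrial DNA, which make respiratory chain subunits, 12 were called lower in the KO libraries, beside 1.60% of all genes described, and all 13 lay below 0 (median log2 difference of the 13 -1.08, range -1.69 to -0.96). mt-Nd1 had 291800, 216663, 201651 and 309906 counts in WT and 89633, 111775, 124413 and 100620 in KO. WT replicates 1 and 4 were again the highest, but replicates 2 and 3 also stood well above all KO libraries, and the log2 difference of -1.24 (adjusted p 0.00393) was -0.98 without replicates 1 and 4 (0.184). mt-Nd3 had 10535, 6130, 4559 and 11263 counts in WT and 1561, 3211, 2468 and 2460 in KO, a log2 difference of -1.69. Of the 12, 7 were called in all 8 fits without 1 library and 0 without WT replicates 1 and 4. The share of mitochondrial RNA differs between cell types and with cell damage, and the part of either here was not tested.

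Lists of other cell types were read beside the 2.06% called over all genes described. Of the 19 lens genes 4 were among the genes described, since crystallins and genes below the count filter were left out, and all 4 were called lower. Erythrocytes had 3 of 5 genes called lower (60.0%), but in each of the 3 KO replicate 1 lay above every WT library, so the groups overlapped. Hba-a1 was at 5828 in KO replicate 1, at 1.01 to 10.3 in KO replicates 2, 3 and 4, and at 1737 to 2263 in WT. Müller glia had Vim, Crym and the potassium channel gene Kcnj10 lower (3 of 12, or 25%), but 5 of the 12 lay above 0 (median -0.38). Glul and Aqp4 of that list differed by 0.002 and 0.02. The sum of the list was 360981 to 489387 in KO and 179693 to 445661 in WT, most of it Apoe. Rods had 1 of 14 called lower (Gngt1, a transducin subunit, -1.57), all 14 below 0 and a median of -0.73. The ganglion cell list had Sncg lower (1 of 10, -1.63), all 10 below 0 and a median of -1.05. Amacrine cells had C1ql2 higher (1 of 9, 2.59), 8 of 9 above 0 and a median of 0.50. The amacrine sum was 22408 to 31163 in KO and 11583 to 20267 in WT. Of the cone genes 8 of 9 lay above 0 (median 0.44), so lists of retinal neurons moved in both directions. Of 5 neutrophil genes described S100a8 and Cxcr2 were called lower (40.0%), while 3 lay above 0 and the list median was 0.72. Mmp9, a secreted protease, and Csf3r differed by 1.11 and 0.72 (adjusted p 0.136 and 0.132), and the sum of the list was 9812 to 14734 in KO against 5666 to 9630 in WT. Most of that sum was Csf3r, at 8677 to 12673 in KO and 4984 to 8567 in WT. Ly6g, Camp and Ngp were at 0 in all IOP libraries. The border macrophage, monocyte, lymphocyte, cone, bipolar, astrocyte, pigment epithelium and endothelial lists had 0 calls. The 12 monocyte genes had a median of -0.10, with 7 below 0. Ly6c2, Vcan and Chil3 differed by -1.43, -1.42 and -2.26 (adjusted p 0.273, 0.358 and 0.492). Ccr2, the receptor of recruited monocytes, was at 155, 404, 464 and 143 in WT and at 1217, 2177, 116.5 and 2145 in KO. KO replicates 1, 2 and 4 were above and KO replicate 3 was below every WT library (log2 difference 1.83, adjusted p 0.178).

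The same genotype comparison was made in naïve retinas and after ONC, on other libraries. The libraries labelled KO held 350, 53.1, 6.78 and 81.6 in naïve retinas, where WT libraries held 1228, 1518, 334 and 492, and 4750, 6811, 15 and 6226 after ONC, against 14557 to 22906 in WT. Naïve KO replicate 1 was thus above naïve WT replicate 3, and 3 of the 4 ONC libraries labelled KO, though below every ONC WT library, held more Spp1 than any WT library after IOP elevation. Of the 15268 genes 69 were called in naïve retinas (0.452%), 11 higher (0.0720%) and 58 lower (0.380%), and 14 after ONC (0.0917%), 12 higher (0.0786%) and 2 lower (0.0131%). In all 8 genes were called both in naïve retinas and after IOP elevation, which is 2.54% of the calls after IOP elevation and 11.6% of those in naïve retinas. Each of the 8 went in opposite directions. Lag3, Jak3, Nectin2 and Slc36a4 were lower in naïve KO libraries (-1.97, -1.47, -0.82 and -0.74) and higher after IOP elevation (1.27, 1.11, 0.82 and 0.75). The call of Rps12-ps3 was shared with ONC, and 0 genes were called in all 3 comparisons.

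**Figure D5:**
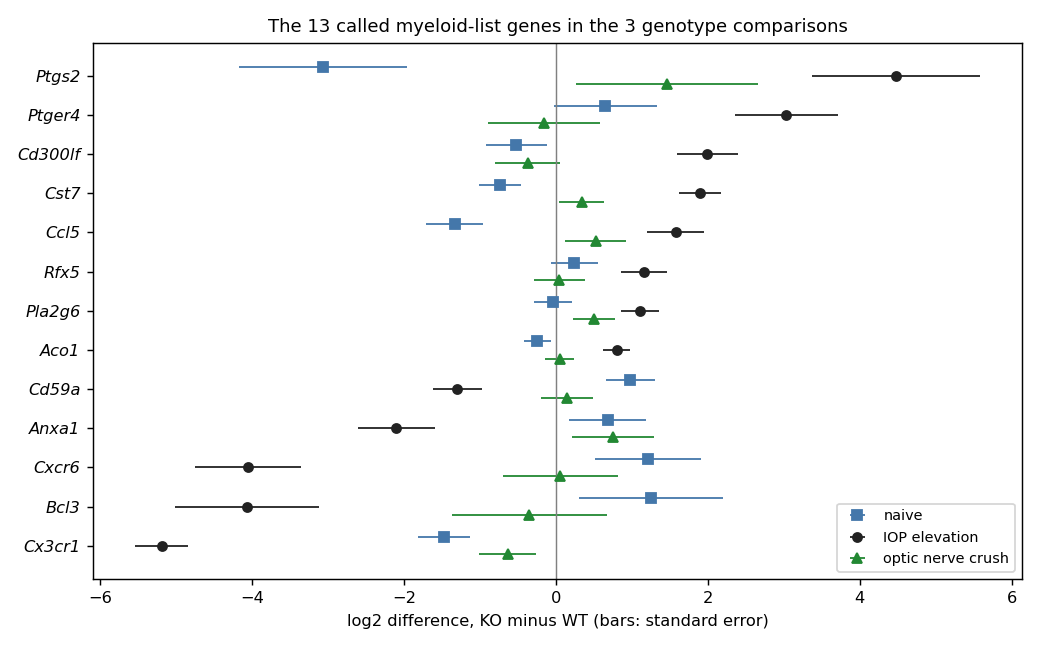
log2 difference (KO minus WT, with its standard error) of the 13 called myeloid-list genes in naïve retinas (squares), after IOP elevation (circles) and after ONC (triangles). Cx3cr1 is below 0 in all 3, and the other 12 lie nearer to 0 or on the opposite side in naïve retinas and after ONC.

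In the myeloid lists 13 genes were lower and 0 higher in the naïve KO libraries, among them H2-Oa (-1.76), Fcrls (-1.48) and Mertk (-1.28), and after ONC 3 were higher and 0 lower. Replicates 1, 2 and 4 of the naïve KO libraries were poor in microglial RNA, with homeostatic sums from 377717 to 447852 against 867749 to 1138707 in naïve WT, and rich in rod RNA, with sums of 738930 to 836464 against 408986 to 496598. The interaction of genotype with IOP elevation, which asks whether the KO-to-WT difference changed between naïve and raised pressure, was called for 1384 genes (9.06%), upward in 5.35% and downward in 3.71% of those described, and for 128 myeloid-list genes upward and 10 downward. Of the 315 calls after IOP elevation 257 were also called in the interaction, which shares their libraries. Among them were Cx3cr1 (-3.71), Cst7 (2.63), Ccl5 (2.91), Ptgs2 (7.55), Cd300lf (2.51) and Cxcr6 (-5.26). The interaction draws on these naïve libraries as well, and without WT replicates 1 and 4 after IOP elevation it was called for 57 genes.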

How the data were processed

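RNA of sorted GFP+ retinal cells from 23 pools was sequenced as 150-bp paired-end reads. The deposited values are normalized counts per gene (a signal unit, counts divided by size factors), which the authors made with salmon on GRCm38 and DESeq2 according to the methods, while the processing notes of the submitters also name STAR. A pseudocount of 1 was added before taking log2, and differences were tested by limma 3.58.1 (R 4.3.3, eBayes with a trend, all 6 groups in 1 fit, 17102 genes reaching 10 in at least 3 of the 23 libraries), and Benjamini-Hochberg adjusted p values were taken over all genes tested. The log2 differences are on that scale and understate changes of low genes.

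Low values were whole multiples of the worth of 1 read, which gave 22180480 to 30296094 reads on genes in 21 libraries (23678254 to 26914869 in 6 of the IOP libraries) and a limit of 3 reads. These limits cover counting error only. edgeR 4.0.16 and DESeq2 1.42.0 were run on these reads as alternatives, without KO IOP replicates 2 and 4, whose depth was not used. The fits were tested on simulated data. Tables and figures were made with Python 3.11.15.

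The comparison and the gene lists were chosen with earlier results of these data known. Named genes were the called list genes, the lowest p values and highest counts of each list, and the 10 largest called protein-coding changes in each direction with separate groups. Others were picked later, and not all are marked where they are named, among them Tbx3, Lcn2, Timp1, S100a6 and the mitochondrial genes. Promoter motifs were picked after the sequences had been read. Crystallin genes and processed pseudogenes were left out of the genes described but kept in the fit. Of the gene identifiers, 34732 matched GENCODE M21 with their version and 704 without it. Some genes that this rule names are not reported here.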

Additional observations from a re-analysis of the deposited data

Results flagged for a closer look

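Dixon's criterion was applied to both IOP groups of 61 named genes, 122 groups in all, and singled out 10 libraries, where chance flags about 1 in 20 groups. WT replicate 2 stood above the other WT libraries for Ccl5 (712) and Syk (1961), WT replicate 1 for Ptgs2 (5.50), WT replicate 3 for Gm21985 (12.3) and Inmt (15.1), and WT replicate 4 for Mfsd4b3 (12.4). Among the KO libraries replicate 1 was high for Anxa1 (562) and Edn2 (13.2), replicate 2 for Aldh3a1 (40.2) and replicate 4 for Lad1 (5.05). For Gm21985, Inmt, Mfsd4b3, Aldh3a1, Edn2 and Lad1 the other libraries of the group were tied. Any single value above a tie is flagged, so the rate of 1 in 20 does not apply to such groups.

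The genotype difference changed between naïve and raised pressure, by the interaction term in limma, for 27 genes among the called myeloid-list genes, the largest changes and Spp1, Relb and Syk. Further named genes also passed, among them Ccr2 (3.62), Csf3r (1.59) and Lag3 (3.24). Of the myeloid-list genes the log2 interaction was -3.71 for Cx3cr1, 2.63 for Cst7, -2.28 for Cd59a, 2.91 for Ccl5, -5.26 for Cxcr6, -5.33 for Bcl3, 7.55 for Ptgs2, 1.15 for Pla2g6, 2.51 for Cd300lf, -2.78 for Anxa1, 1.05 for Aco1 and 2.16 for Syk. Of the largest rises it was 7.56 for Gm21985, 7.58 for Slc2a4, 8.997 for Uts2r, 3.84 for Cbln2 and 3.76 for Pdzk1ip1. Of the largest falls it was -11.00 for Ddx3y, -8.42 for Grifin, -12.89 for Aldh3a1, -5.83 for Gja3, -8.91 for Lgsn, -10.35 for Edn2, -6.04 for Bfsp1, -8.57 for Lad1, -6.88 for Wnt7b and -6.62 for Lctl. The libraries are those of the IOP comparison plus the naïve ones, of which KO replicates 1, 2 and 4 had low homeostatic sums, and the part of that difference was not tested.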

How the results depend on the processing

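KO against WT after IOP elevation gave 315 calls. Calls numbered 190 from the IOP libraries alone, 138 with the rod sum as a covariate, 18 without WT replicates 1 and 4, 172 without KO replicates 2 and 4, 143 after scaling to homeostatic genes, 199 with their level as a covariate, 18 by edgeR (2314 at an unadjusted p under 0.05) and 706 by DESeq2 (2810). Leaving out single IOP libraries gave 90 (WT replicate 4) to 521 (WT replicate 2), and single libraries of the other groups, which share the estimate of spread, 261 to 588 (588 without naïve KO replicate 3), with 117 without WT replicate 1 and 184 without KO replicate 3. The cause was not tested, beyond the smaller number of libraries. Upper-quartile rescaling moved the median of all genes tested to -0.12 and gave 58 higher and 301 lower calls. In each alternative that tested them the called genes kept their sign.

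The gene lists held 13 calls, and 21 after quantile normalization, 8 from the IOP libraries alone, 7 with the rod covariate, 3 without WT replicates 1 and 4, 7 without KO replicates 2 and 4, 2 by edgeR, 21 by DESeq2 and 4 to 33 without single libraries (here and below those of the groups compared). KO against WT in naive retinas gave 69 calls, and 131 with a mean of at least 50, 378 after quantile normalization, 106 with the replicate block and 1 to 1568 without single libraries. KO against WT after ONC gave 14 calls, and 2 to 732. The genotype by IOP interaction gave 1384, and 57 without WT replicates 1 and 4, 764 without KO replicates 2 and 4 and 529 to 2865 without single libraries.

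The log2 difference changed sign after quantile normalization for the uncalled Cd74 (-0.031), H2-Aa (-0.19), Hpgd (-0.19), Map1lc3b (-0.14), Scd2 (-0.0514) and Junb (-0.087), and after upper-quartile rescaling for H2-Aa (-0.0818), Hpgd (-0.0355) and Junb (-0.0044). Without single libraries it ran from -0.13 to 0.46 for Cd74, -0.25 to 0.26 for H2-Ab1, -0.25 to 0.29 for H2-Aa, -0.10 to 0.25 for Hpgd and -0.0124 to 0.12 for Junb. With the replicate number as a block KO against WT after IOP elevation gave 317 calls. Same-numbered WT and KO libraries had correlations of their deviations of -0.094, -0.001, 0.003 and 0.027, so the numbers were not taken to pair them.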
